A study of Mus musculus with 16 samples.

Results

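Smooth muscle cells and pericytes, together called mural cells, wrap the blood vessels of adipose tissue. The genes described here were 9 that are commonly used to mark these cells: Acta2, Tagln and Cnn1 of the smooth muscle contractile apparatus, and Rgs5, Pdgfrb, Notch3, Abcc9, Cspg4 and Mcam, which encode signalling, channel and surface proteins of pericytes and other mural cells. They were taken from a fixed list of names, and every probe set that the array's annotation assigned to exactly 1 of those names was used. This gave 19 probe sets of the 45101 on the array, and 9 of the 18194 genes that had at least 1 such probe set.

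The study compared gene expression in subcutaneous white adipose tissue (sWAT) and brown adipose tissue (BAT, from between the shoulder blades) of LACA mice. Per the labels all animals were male, weighed 25 ± 3 g, ate standard chow and received no treatment, so that by label the groups differed in tissue alone. Their ages were not given in the sources used here. RNA was hybridised to the Affymetrix Mouse Genome 430 2.0 array, and each tissue had 4 replicates with 2 arrays each, labelled biological and technical and called the first and second array here. Values are on the log2 scale and relative to the median of all 16 arrays for each probe set. They therefore give differences between samples and not levels, and the abundance of one gene cannot be set against that of another.

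Mural cells come in several forms. Smooth muscle cells of arteries and veins contract by means of actin, myosin and their binding proteins, and the contractile genes are switched on largely through serum response factor (SRF) and its partner myocardin at DNA motifs called CArG boxes. Pericytes sit on capillaries, are recruited by platelet-derived growth factor B from the endothelium through the receptor encoded by Pdgfrb, and keep their identity in part through Notch3. In BAT, a densely perfused tissue, vessels carry fuel and oxygen in and heat out. In whole tissue, fewer cells of a type and less RNA per cell cannot be told apart.

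The tissue labels held for Ucp1, the uncoupling protein of brown fat, whose log2 value was -5.18 to -2.88 in sWAT and 2.75 to 4.53 in BAT. The labels did not hold in another respect. Xist, the RNA of the inactive X chromosome, stood at 5.74, 6.26 and 6.36 in BAT replicates 1, 2 and 3 but at -0.26 in BAT replicate 4 and at -0.27 to -0.11 in sWAT. Averaged, the Y chromosome genes Kdm5d, Uty and Eif2s3y read -2.33 to -1.98 in those 3 BAT replicates and 0.18 to 0.39 in all other replicates. The 3 BAT libraries therefore went against the label male, and the replicate numbers cannot all mark shared animals. A pair, below, is a BAT and a sWAT replicate of equal number and is not taken as 1 animal. BAT replicates 1, 2 and 3 differed from sWAT in Xist and Y chromosome signal as well as in tissue. In them the part of sex and the part of tissue cannot be told apart. For Gapdh and Actb, the mean 5' minus 3' signal read -4.79 for sWAT replicate 3 (its first array) and -3.56 for BAT replicate 1 (its second), against -1.23 to 0.46 on the remaining arrays. Over all probe sets these 2 replicates showed a correlation between their own arrays of 0.34 and 0.51, against 0.85 to 0.92 in the remaining replicates. These are called the low 5' arrays. Results are therefore also given for replicate 4 alone and with the low 5' arrays left out.

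Of the 9 genes, 2 were higher in BAT at an adjusted p under 0.05 (limma, blocked on replicate number, with Benjamini-Hochberg adjustment over all genes), Cnn1 by 2.03-fold and Acta2 by 1.39-fold. Over all genes 21.0% were called higher and 17.5% lower, so the share among the 9 was close to the background. No member was called lower, and at an unadjusted p under 0.05 the same fit also had 0 lower and 3 higher. The median log2 difference (BAT minus sWAT) of the 9 was 0.26 against 0.15 over all genes. It was above 0 for 8 of the 9 genes, and for 62.7% of all genes. At probe set level 4 of 19 were called higher and none lower, against 15.1% and 17.3% of all probe sets, which at an adjusted p under 0.05 is 6818 and 7787 probe sets, or 1621 and 1140 with arrays scaled to Gapdh and Actb. At an unadjusted p under 0.05 limma had 7 of the 19 higher and 0 lower. When the low 5' arrays were left out, 4 genes were called higher, Acta2, Cnn1, Rgs5 and Cspg4, against a background of 28.7%, and 6 of 19 probe sets, against 21.7%.

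**Figure D1:**
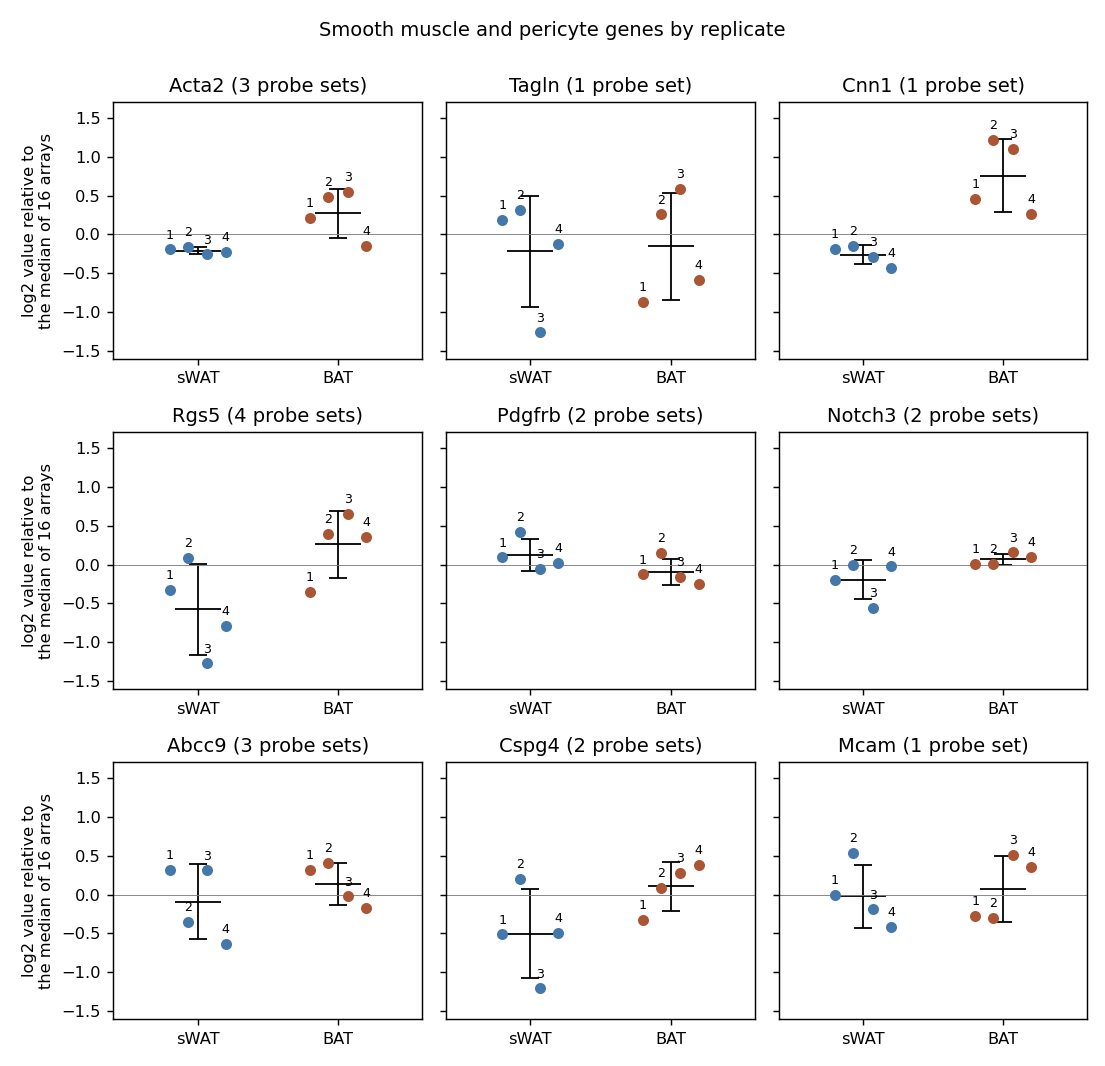
Log2 value relative to the median of 16 arrays (vertical axis) for each of the 9 genes in the 4 sWAT (blue) and 4 BAT (brown) replicates, numbered by replicate. Bars are the mean ± SD (n = 4). Acta2, Cnn1 and Notch3 have all BAT points above all sWAT points, only Pdgfrb has the lower mean in BAT, and sWAT replicate 3 is far below the other sWAT points for Tagln.

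The contractile genes come first. Acta2 encodes smooth muscle alpha-actin, the thin-filament protein of contractile mural cells. The 250 bases before its listed start (RefSeq, GRCm38.p6, chr19:34255374-34255623, minus strand) are shown because 2 matches to a loosened CArG box, in capitals, lie 84 and 34 bases before the start, counted from the first base of each match. The same stretch of Cnn1 (chr9:22099003-22099252, plus strand), the contractile gene with the larger difference, and of Rgs5 (chr1:169655251-169655500, plus strand), the pericyte gene with the largest, held none.
Acta2: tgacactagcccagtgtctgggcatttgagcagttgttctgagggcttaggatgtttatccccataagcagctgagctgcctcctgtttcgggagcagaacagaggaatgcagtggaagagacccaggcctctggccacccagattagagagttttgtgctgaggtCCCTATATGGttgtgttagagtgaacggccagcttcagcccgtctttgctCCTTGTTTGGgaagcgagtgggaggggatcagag
Cnn1: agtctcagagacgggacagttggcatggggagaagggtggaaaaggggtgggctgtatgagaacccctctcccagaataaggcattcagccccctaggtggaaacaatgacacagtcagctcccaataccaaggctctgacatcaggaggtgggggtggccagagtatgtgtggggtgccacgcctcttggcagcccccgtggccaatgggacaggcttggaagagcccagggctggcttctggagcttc
Rgs5: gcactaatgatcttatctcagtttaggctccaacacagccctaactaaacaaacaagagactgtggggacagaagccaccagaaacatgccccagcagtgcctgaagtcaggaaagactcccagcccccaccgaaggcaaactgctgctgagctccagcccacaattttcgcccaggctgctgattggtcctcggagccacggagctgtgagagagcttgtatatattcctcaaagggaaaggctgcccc

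The motif searched was CCNNNNNNGG with at least 5 of the 6 middle bases A or T, which reads the same way on both strands. It was loosened to 5 after a search with all 6 found no match in the members. Of all 32851 promoter windows of this length 8.59% held the loosened motif, and 1.47% the strict one. Of the members, 7 had an entry in the promoter table, and of these only Acta2 held a match in this window. On GRCm38.p6 the RefSeq gene spans of Cnn1 (chr9:22099221-22109221), Mcam (chr9:44134658-44142727), Tagln (chr9:45929628-45936058) and Cspg4 (chr9:56865104-56899870) lie on the same chromosome, while Acta2 spans chr19:34240336-34255585, Rgs5 chr1:169655501-169695813, Abcc9 chr6:142587862-142702766 and Notch3 chr17:32120820-32166896. The starts listed in the promoter table for Acta2, Cnn1, Notch3 and Abcc9 lie inside these spans, so that their windows overlap the annotated gene. Both Acta2 matches fall within the Acta2 span. The Abcc9 window (chr6:142702275-142702524) lies wholly within the Abcc9 span and holds no sequence upstream of the annotated gene.

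In sWAT the 4 Acta2 values were -0.19, -0.16, -0.26 and -0.22, a spread of 0.043 (SD, n = 4). In BAT they were 0.21, 0.48, 0.55 and -0.15. The groups did not overlap, but BAT replicate 4 lay only just above the highest sWAT value while the other 3 stood clear of it. The log2 difference was 0.48 ± 0.15 (SE, n = 4 per tissue; limma adjusted p = 0.042). Its 3 probe sets differed by 0.30 to 0.58, and 1 of them, 1444105_at, passed the test at probe set level (0.58 ± 0.13, adjusted p = 0.015). The call rested on few replicates: without replicate 1, 2 or 3 the adjusted p was 0.091, 0.16 or 0.10, and the difference was 0.51, 0.43 or 0.37. It was also lost under several processing settings, which are given below. In replicate 4, the pair without high Xist in either tissue, the difference was 0.08.

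Cnn1 encodes calponin 1, an actin-binding protein of differentiated smooth muscle that restrains the myosin ATPase. Its single probe set read -0.19, -0.14, -0.28 and -0.43 in sWAT and 0.45, 1.22, 1.10 and 0.26 in BAT. Every BAT replicate stood above every sWAT replicate, with BAT replicates 2 and 3 highest. The log2 difference was 1.02 ± 0.17 (SE, n = 4 per tissue; limma adjusted p = 0.0038), and Cnn1 was the 1 member called at 2-fold or more, as were 7.13% of all genes in that direction. It was positive in all 4 pairs, at 0.64, 1.36, 1.39 and 0.69. Left-out replicates moved it between 0.90 and 1.15 with an adjusted p of 0.006 to 0.02, and without the low 5' arrays it was 1.09 ± 0.14 (adjusted p = 7.9e-04).

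Tagln encodes transgelin, also named SM22-alpha, which cross-links actin filaments in smooth muscle. Its single probe set read 0.19, 0.32, -1.26 and -0.12 in sWAT and -0.87, 0.26, 0.59 and -0.59 in BAT. The tissues overlapped over almost their whole range, and the spread within each was the widest of the 9 genes (SD 0.72 in sWAT and 0.69 in BAT). The difference of 0.07 ± 0.43 (limma adjusted p = 0.91) was far inside its error. It was positive in 1 of the 4 pairs, replicate 3, whose first sWAT array read -2.05. Without the low 5' arrays the difference was 0.01 ± 0.26. In BAT, replicates 2 and 3 were the upper pair for each of the 3 contractile genes.

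Rgs5 encodes a regulator that speeds the shut-off of G protein signals and is among the most used pericyte markers. The mean of its 4 probe sets was -0.33, 0.09, -1.27 and -0.78 in sWAT and -0.36, 0.39, 0.65 and 0.35 in BAT. Only BAT replicate 1 lay within the sWAT range. The difference was 0.84 ± 0.31 (limma adjusted p = 0.07), 1.78-fold, and did not pass the threshold. Without the low 5' arrays BAT replicate 1 read 0.48 and sWAT replicate 3 read -0.54, the groups no longer overlapped, and the difference was 0.86 ± 0.16 (adjusted p = 0.005). Without replicate 1 it also passed (1.12, adjusted p = 0.047). Without replicate 3 it was 0.47 (adjusted p = 0.15).

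The 4 Rgs5 probe sets did not respond alike. Probe sets 1420941_at (1.10 ± 0.32, adjusted p = 0.038) and 1420940_x_at (0.95 ± 0.22, adjusted p = 0.016) passed the test at probe set level. Probe set 1417466_at differed by 0.50 ± 0.19 (adjusted p = 0.082). Probe set 1420942_s_at differed by 0.79 ± 0.63 (adjusted p = 0.36), and on the 2 arrays of low 5' signal it fell to -3.83 and -3.08, far below its value on the second array of sWAT replicate 3 (-0.62) and the first of BAT replicate 1 (0.43). The suffix _x marks probes that may bind other sequences and _s probes shared by several transcripts, so these 2 probe sets were the less specific ones.

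**Figure D2:**
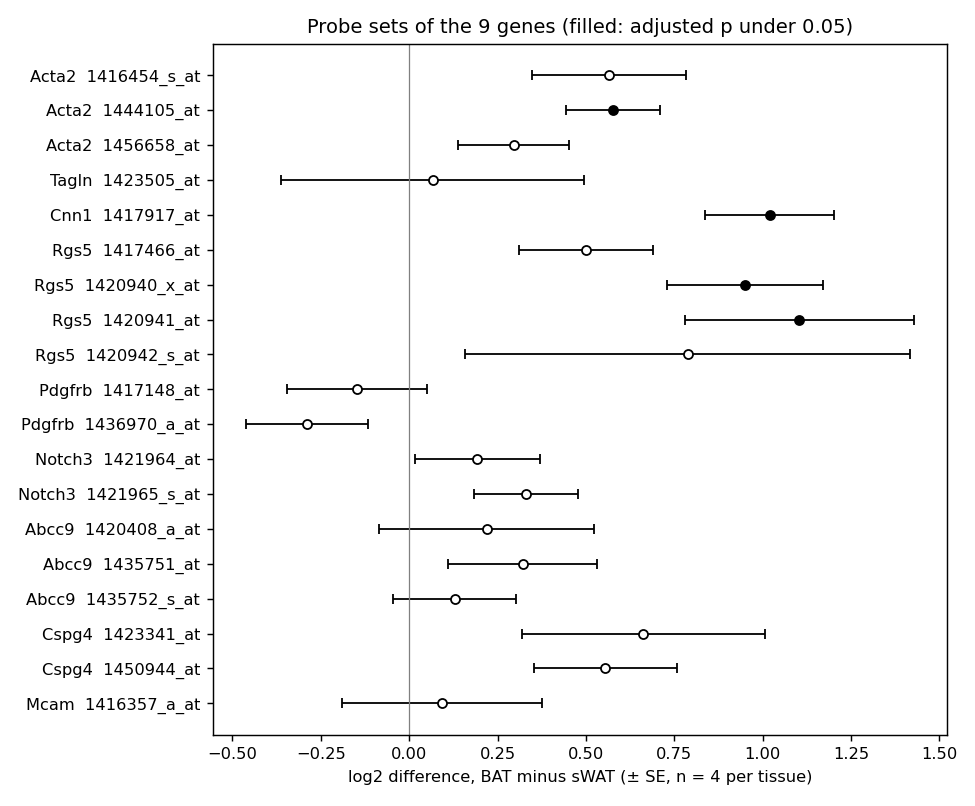
Log2 difference, BAT minus sWAT, with its standard error (horizontal axis; n = 4 per tissue) for the 19 probe sets of the 9 genes. Filled points passed an adjusted p of 0.05 over all probe sets, and these 4 belong to Acta2, Cnn1 and Rgs5. Only the 2 Pdgfrb probe sets lie below 0.

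Cspg4 encodes the proteoglycan NG2 on the surface of pericytes. Its values were -0.51, 0.20, -1.21 and -0.50 in sWAT and -0.32, 0.08, 0.28 and 0.38 in BAT. sWAT replicate 2 lay within the BAT range, and the other 3 sWAT replicates lay below all of BAT. The difference was 0.61 ± 0.26 (limma adjusted p = 0.10), positive in 3 of 4 pairs. Both probe sets gave a similar size, 0.66 ± 0.34 and 0.55 ± 0.20. Without the low 5' arrays it was 0.63 ± 0.19 and passed (adjusted p = 0.031). Without replicate 3 it was 0.32 (adjusted p = 0.26).

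Pdgfrb encodes platelet-derived growth factor receptor beta, on pericytes, smooth muscle cells and also fibroblasts and adipocyte progenitors. It read 0.09, 0.42, -0.05 and 0.02 in sWAT and -0.13, 0.15, -0.16 and -0.25 in BAT. BAT was lower in all 4 pairs, by -0.22, -0.27, -0.11 and -0.27, but the groups overlapped because replicate 2 was the highest in both tissues. The difference was -0.22 ± 0.11 (limma adjusted p = 0.16), and with arrays scaled to Gapdh and Actb its sign turned (0.11). The 2 probe sets differed from each other within replicates: in replicate 3 the differences were 0.51 and -0.72.

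Notch3 encodes the Notch receptor of mural cells. It read -0.19, -0.01, -0.55 and -0.02 in sWAT and 0.002, 0.01, 0.16 and 0.10 in BAT. The groups did not overlap, yet the gap between BAT replicate 1 and sWAT replicate 2 was narrower than the SD within BAT (0.074). The difference was 0.26 ± 0.15 (limma adjusted p = 0.19). In all, 3 genes of 9, Acta2, Cnn1 and Notch3, had every BAT replicate above every sWAT replicate, against 28.0% of all genes, and 3 of 19 probe sets, against 23.2%.

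Abcc9 encodes SUR2, the regulatory subunit of the ATP-sensitive potassium channel of mural cells. It read 0.32, -0.36, 0.31 and -0.64 in sWAT and 0.31, 0.41, -0.02 and -0.17 in BAT. Each tissue held a high and a low pair of replicates, so that the difference of 0.22 ± 0.19 (limma adjusted p = 0.37) was positive in 2 of 4 pairs. Mcam encodes CD146, an adhesion molecule of mural and endothelial cells. It read 0.00, 0.53, -0.19 and -0.42 in sWAT and -0.28, -0.30, 0.51 and 0.36 in BAT. Here too 2 of 4 pairs were positive, and the difference was 0.09 ± 0.28 (limma adjusted p = 0.80).

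The order of the 9 differences was Cnn1, Rgs5, Cspg4, Acta2, Notch3, Abcc9, Mcam, Tagln and Pdgfrb. Neighbours in this order were closer than their combined standard error, with the exception of Acta2 and Notch3, which stood 0.22 apart against 0.21. In replicate 4 alone, a value with no test, the order was another: Rgs5 1.14, Cspg4 0.87, Mcam 0.78, Cnn1 0.69, Abcc9 0.47, Notch3 0.12, Acta2 0.08, Pdgfrb -0.27 and Tagln -0.47.

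The 2 arrays of low 5' signal touched the members unequally. For 8 of the 9 genes the largest difference between the 2 arrays of a replicate lay in sWAT replicate 3 or BAT replicate 1. On that of sWAT replicate 3, Tagln read -2.05, Rgs5 -2.01 and Cspg4 -1.71. On that of BAT replicate 1 they read -1.44, -1.19 and -0.92. Acta2, Pdgfrb and Abcc9 read higher there than on the other array of the replicate (-0.08, 0.06 and 0.68 in sWAT, 0.27, -0.04 and 0.50 in BAT). In the other 6 replicates the median absolute difference between the 2 arrays was 0.06 to 0.24, depending on the gene. The largest was 0.18 for Notch3 and up to 0.73 for Rgs5, both in BAT replicate 2. There the first array also exceeded the second by 0.62 for Cnn1 and 0.45 for Cspg4, but by 0.04 for Acta2. The second array of that replicate had the next lowest 5' minus 3' signal, -1.23. The part of RNA quality in these values was not tested.

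**Figure D3:**
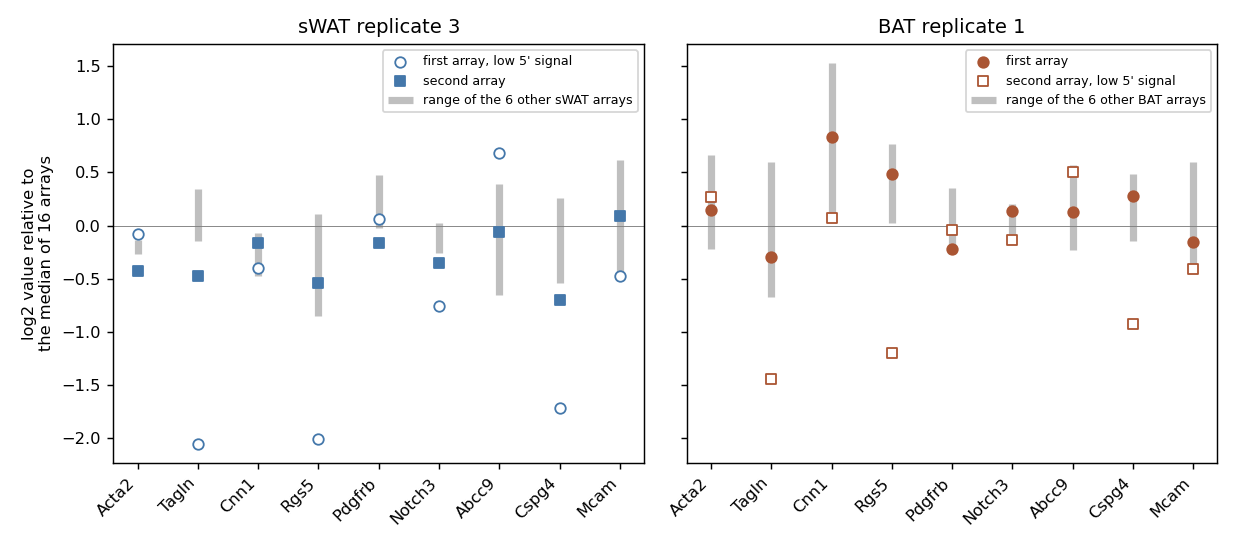
Log2 value relative to the median of 16 arrays (vertical axis) of the 9 genes on the 2 arrays of sWAT replicate 3 and BAT replicate 1. Open symbols are the arrays of low 5' Gapdh and Actb signal, filled symbols the other array of the replicate, and grey bars the range of the 6 other arrays of that tissue. Tagln, Rgs5, Cspg4, Notch3 and Mcam lie below the grey bars on both open arrays, Notch3 and Mcam by less than the others.

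Among 15 further genes of the smooth muscle contractile apparatus 3 rose in BAT, close to the 21.0% of all genes called higher. No test was passed in the other direction, against 17.5% of all genes called lower. There 1 of 4 negative differences, that of Cald1, had an unadjusted p under 0.05. The median log2 difference was 0.39 against 0.15 over all genes. Tpm2, beta-tropomyosin, rose by 2.18 ± 0.18 (limma adjusted p = 2.0e-04), Lmod1, the actin nucleator leiomodin 1, by 0.88 ± 0.15 (adjusted p = 0.0036), and Des, the intermediate filament desmin, by 0.69 ± 0.13 (adjusted p = 0.0053). These 3 calls held without any one replicate. Replicate 4 alone gave 2.57 for Tpm2, 0.63 for Lmod1 and 0.75 for Des. Tpm2 and Des are also made by skeletal muscle, and all 10 skeletal muscle fibre markers rose in BAT, with a list mean of -2.01 to -1.57 in sWAT and 2.14 to 4.05 in BAT. The part of skeletal muscle in the smooth muscle genes was not tested. The smallest difference in size was that of Itga8, integrin alpha 8, at 0.19 ± 0.12. Without the low 5' arrays 5 of the 15 were called higher and 1 lower, against 28.7% and 20.5% of all genes.

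Among 15 further pericyte genes 4 rose and 2 fell, against 21.0% and 17.5% of all genes, with a median of 0.10. The higher ones were Kcnj8, the pore subunit that pairs with SUR2 (0.78 ± 0.24, limma adjusted p = 0.04), Higd1b (0.75 ± 0.15, adjusted p = 0.0084), Heyl, a Notch target (0.70 ± 0.12, adjusted p = 0.0036), and Cox4i2, a cytochrome oxidase subunit isoform (0.42 ± 0.14, adjusted p = 0.048, 0.052 with probe sets ending in _at alone, and 0.056 to 0.16 at differences of 0.31 to 0.51 without any one replicate). The lower ones were Vtn, vitronectin (-0.82 ± 0.21, adjusted p = 0.02), and P2ry14, a receptor for UDP-sugars (-0.73 ± 0.14, adjusted p = 0.007). Kcnj8 kept its call only without replicate 4, and without replicate 1, 2 or 3 its adjusted p was 0.14, 0.078 or 0.088 at differences of 0.72, 0.85 and 0.51. Vtn lost its call without replicate 1, 2 or 4, with differences of -0.69, -0.81 and -0.70 and adjusted p-values of 0.085, 0.066 and 0.066. Anpep, aminopeptidase N, had the smallest difference (-0.01 ± 0.16). With replicate 4 alone Kcnj8 differed by 0.03, Higd1b by 0.75, Heyl by 0.80, Cox4i2 by 0.15, Vtn by -1.18 and P2ry14 by -0.65. Without the low 5' arrays 6 of the 15 were called higher and 2 lower, against 28.7% and 20.5% of all genes.

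**Figure D4:**
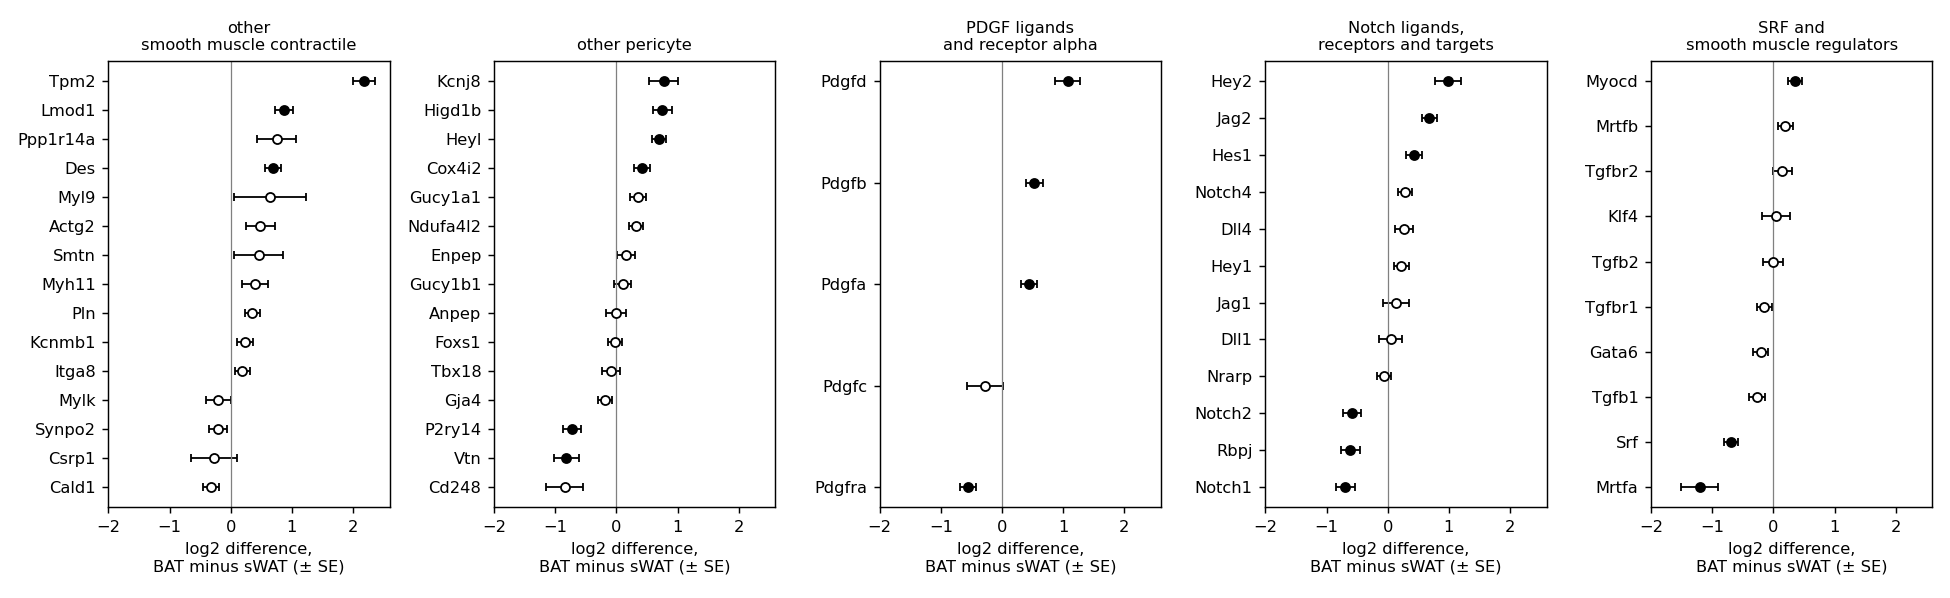
Log2 difference, BAT minus sWAT, with its standard error (horizontal axis; n = 4 per tissue) for further smooth muscle and pericyte genes, PDGF and Notch genes, and regulators of the contractile genes. Filled points passed an adjusted p of 0.05. The contractile list lies mostly above 0, with Tpm2 farthest at 2.18, and every other list has filled points on both sides of 0.

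Of the ligands for the PDGF receptors, Pdgfb, the ligand that recruits pericytes through Pdgfrb, rose by 0.52 ± 0.14 (limma adjusted p = 0.024), Pdgfd, which also acts on this receptor, by 1.07 ± 0.21 (adjusted p = 0.0066), and Pdgfa by 0.45 ± 0.13 (adjusted p = 0.032). Pdgfra, the receptor of fibroblasts and adipocyte progenitors, fell by 0.55 on the log2 scale (SE 0.13, adjusted p = 0.016), and Pdgfc differed by -0.28 ± 0.29. Over these 5 genes 3 rose and 1 fell, against 21.0% and 17.5% of all genes, with a median of 0.45. The Pdgfd call held without any one replicate. That of Pdgfb was lost without replicate 2 or 3 (0.52 and 0.40, adjusted p = 0.092 and 0.056), that of Pdgfa without replicate 1, 2 or 4 (0.48, 0.47 and 0.34, adjusted p = 0.063, 0.11 and 0.13), and that of Pdgfra without replicate 1 or 2 (-0.51 and -0.50, adjusted p = 0.054 and 0.087). The 3 Pdgfd probe sets ranged from 0.17 to 1.90. Taken alone, replicate 4 gave 0.37 for Pdgfb, 1.85 for Pdgfd, 0.76 for Pdgfa and -0.22 for Pdgfra.

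Of 12 further Notch genes 3 rose and 3 fell, against 21.0% and 17.5% of all genes, with a median of 0.18. The ligand Jag2 rose by 0.68 ± 0.13 (limma adjusted p = 0.0059), and the target genes Hey2 by 0.99 ± 0.21 (adjusted p = 0.01) and Hes1 by 0.43 ± 0.13 (adjusted p = 0.034). Jag1 and Dll4, ligands that present the signal to Notch3 and other receptors in vessels, differed by 0.14 ± 0.21 and 0.27 ± 0.14 and did not pass. The Jag1 probe sets ranged from -0.21 to 0.33. The receptors Notch1 (-0.69 ± 0.16, adjusted p = 0.014) and Notch2 (-0.59 ± 0.14, adjusted p = 0.018) and the DNA-binding partner Rbpj (-0.61 ± 0.16, adjusted p = 0.021) were lower in BAT. Notch2 rests on 2 probe sets of opposite sign, -1.50 and 0.32. The calls of Hes1 and Rbpj did not hold without replicate 2 or 3, where Hes1 differed by 0.38 and 0.41 (adjusted p = 0.16 and 0.073) and Rbpj by -0.63 and -0.58 (adjusted p = 0.073 and 0.057). Without replicate 4 Hes1 was also lost (0.41, adjusted p = 0.11), without replicate 1 Rbpj (-0.49, adjusted p = 0.073), and without replicate 2 Notch2 (-0.57, adjusted p = 0.079). Dll1 had the smallest difference, 0.05 ± 0.18. Differences in replicate 4 alone were 0.43 for Jag2, 1.71 for Hey2, 0.50 for Hes1, -0.80 for Notch1, -0.31 for Notch2 and -0.16 for Rbpj.

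Of 10 regulators of the contractile genes 1 rose and 2 fell, against 21.0% and 17.5% of all genes, with a median of -0.08. Myocd, myocardin, rose by 0.35 ± 0.12 (limma adjusted p = 0.049), with values of -0.26 to -0.14 in sWAT and 0.05 to 0.24 in BAT. The call was lost without each replicate in turn, at differences of 0.32 to 0.41 and adjusted p-values of 0.094 to 0.13. Srf, the factor that myocardin binds, was lower in BAT (-0.69 ± 0.12, adjusted p = 0.0036), and so was Mrtfa, a second SRF partner that responds to free actin (-1.20 ± 0.30, adjusted p = 0.02). The Srf call held without any one replicate, but its 2 probe sets differed by -1.17 and -0.21, and with the one ending in _at alone the call was lost (-0.21, adjusted p = 0.19), as was that of Myocd (0.27, adjusted p = 0.19). The call of Mrtfa was lost without replicate 1, 2 or 4 (-0.91, -1.18 and -1.12, adjusted p = 0.077, 0.059 and 0.055). Myocd differed by 0.33, Srf by -0.73 and Mrtfa by -1.47 in replicate 4 alone. Mrtfb differed by 0.19 ± 0.13 and Tgfb2 by -0.003 ± 0.16. Both are means of probe sets of opposite sign, from -0.27 to 0.63 for Mrtfb and from -0.22 to 0.22 for Tgfb2. SRF, Mrtfa, Notch1 and Notch2 are made by many cell types, and B and T cell markers were all lower in BAT (9 of 9 measured, list mean 1.78 to 2.39 in sWAT and -2.27 to -1.86 in BAT). The part of those cells was not tested.

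A further list held 3 other genes of ATP-sensitive potassium channels, of which Kcnj8 was also in the pericyte list. Kcnj11, the other pore subunit, rose by 0.43 ± 0.13 (limma adjusted p = 0.037). Abcc8, which encodes SUR1, a regulatory subunit like SUR2, rose by 0.53 ± 0.15 (limma adjusted p = 0.031). With Kcnj8 all 3 were called higher, against 21.0% of all genes. In replicate 4 alone the differences were 0.28 for Kcnj11, 0.13 for Abcc8 and 0.03 for Kcnj8. Without the replicate block Kcnj8 had an adjusted p of 0.052 in limma, and with probe sets ending in _at alone Abcc8 differed by 0.24 (adjusted p = 0.22). Each of these calls was lost without some replicates: Kcnj11 without 1, 2 or 4 (0.33, 0.42 and 0.48, adjusted p = 0.10, 0.14 and 0.07) and Abcc8 without 1, 2 or 3 (0.43, 0.45 and 0.58, adjusted p = 0.11, 0.14 and 0.051). Of 8 relatives of Rgs5 in the R4 family, Rgs2, known to oppose vasoconstrictor signals in smooth muscle, rose by 1.50 ± 0.18 (adjusted p = 9.3e-04), and Rgs13 and Rgs1, best known from B cells, fell by 5.09 and 2.84 on the log2 scale (adjusted p = 1.2e-04 and 1.4e-04). Rgs16 differed least (0.14 ± 0.24). For replicate 4 alone the differences were 2.12 for Rgs2, -3.93 for Rgs13 and -2.36 for Rgs1. Of the 5 other actins, Acta1 and Actc1, the sarcomeric forms, rose by 6.21 ± 0.40 and 1.73 ± 0.29 (adjusted p = 8.7e-05 and 0.0037). Actb and Actg1, the cytoplasmic forms, fell by 1.28 and 1.24 on the log2 scale (adjusted p = 0.019 and 0.001; for Actb 0.057 at -1.26 without replicate 2). Actg2, the smooth muscle gamma form, differed by 0.49 ± 0.23 without passing (adjusted p = 0.13). Acta1 differed by 7.82, Actc1 by 2.73, Actb by -1.07 and Actg1 by -1.09 in replicate 4 alone.

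Of 10 blood endothelial markers 2 rose, close to the 21.0% of all genes, with a median of 0.37. The list means overlapped, at -0.77 to 0.18 in sWAT and -0.49 to 0.37 in BAT. Without the low 5' arrays 6 rose and 1 fell, against 28.7% and 20.5% of all genes. In sWAT replicate 3 and BAT replicate 1, which hold the low 5' arrays, the list stood lowest of its tissue (-0.77 and -0.49), as did the mean of the 6 pericyte members (-0.49 and -0.13). Of 9 fibroblast markers measured, which include Pdgfra, 7 fell (median -1.48), with a list mean of 0.06 to 1.13 in sWAT. In BAT the mean was -1.67, -1.02 and -1.11 in replicates 1, 2 and 3, those of high Xist, but 0.49 in replicate 4, within the sWAT range. All 6 measured lymph node stroma markers fell (list mean 1.08 to 1.31 and -1.57 to -1.20). Of 6 Schwann cell markers 3 rose and 1 fell, and of 7 adipocyte markers 3 rose, against 21.0% up and 17.5% down over all genes. The part of these cells in the values of the 9 genes was not tested.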

How the data were processed

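The authors imported the array scans into GeneSpring GX 12.1, summarised them by RMA with quantile normalisation and subtracted the median of all samples from each probe set. The deposited values are therefore log2 values whose median over the 16 arrays is 0 for every probe set. No absolute signal or detection call was used here, and precision is limited by the number of arrays. By the platform's gene annotation, 34958 probe sets had 1 gene symbol, 932 several and 9211 none. The 2 arrays of each replicate were averaged, a gene was the mean of its single-symbol probe sets, and the tissue difference (BAT minus sWAT) was fitted in limma 3.58.1 in R 4.3.3 (lmFit and eBayes, two-sided) with the replicate number as a block, since the methods used a paired test. Benjamini-Hochberg adjustment ran over 45101 probe sets or 18194 genes. The fit was tried on simulated independent values. These held no shared replicate effect, low 5' array or sex signal, so that the trial does not cover those features. In the blocked fit the p-values rest on how the BAT minus sWAT differences vary between replicate numbers, with variances moderated over all features. The labels do not say whether each replicate was 1 animal.

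The 9 genes and the other gene lists were chosen with earlier results of these data known. Named were all 9 genes and their probe sets. From the other lists the text names up to 3 called genes in each direction with the largest difference, the smallest difference, and direct partners of the 9; Cox4i2, Cald1 and the actins stand outside this rule and were named after their values were seen. Alternatives were no block, the first arrays only, the second arrays only, all 16 arrays as replicates, leaving out the low 5' arrays or each replicate in turn, replicate 4 alone, 2 other scalings, the methods' t-test, probe sets ending in _at alone, and array weights. BAT replicate 4 against all sWAT replicates was added after seeing the data. Promoter sequences came from RefSeq on GRCm38.p6. Tagln and Pdgfrb had no entry there.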

Additional observations from a re-analysis of the deposited data

Results flagged for a closer look

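Of 56 groups of 4 replicate values (9 genes and 19 probe sets in 2 tissues), 1 held a value that stood apart from the rest of its group by Dixon's ratio, which flags about 1 in 20 groups by chance. It was Pdgfrb probe set 1417148_at in BAT replicate 1, at a log2 value of -0.48, where the other 3 BAT replicates read -0.01, -0.004 and -0.06. That value averages 0.08 on the first array and -1.05 on the second, which is a low 5' array. The other Pdgfrb probe set read 0.23 in the same replicate, from -0.51 on the first array and 0.97 on the second.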

How the results depend on the processing

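The replicate numbers tie together the labels only. Deviations from the tissue means correlated at -0.15, 0.08, -0.34 and 0.26 between equal numbers over all genes. BAT replicate 1 correlated best with sWAT replicate 3 (0.52), and the Xist values go against shared animals. Without the replicate block the member genes called higher were 3, with Rgs5 added (limma adjusted p = 0.047), and the member probe sets 3. In that fit 28.0% of all genes and 21.7% of all probe sets were called higher.

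Of 1064 recomputed differences of the named genes and probe sets, 803 kept their direction and, where tested, their side of the threshold. A further 160 kept the direction but lost the call, 32 gained one, and 54 turned sign. Values of replicate 4 alone have no test. With the sign kept, they counted as kept within the spread between pairs, and 15 moved by more. Cnn1 lost its call with arrays scaled to Gapdh and Actb, in the methods' t-test and in the comparison of BAT replicate 4. Acta2 lost its call with first arrays alone (0.37, limma adjusted p = 0.12) and with arrays centred on their medians (0.42, limma adjusted p = 0.082). It was also lost with arrays scaled to Gapdh and Actb (0.80, limma adjusted p = 0.58) and in the methods' t-test (adjusted p = 0.13). Second arrays alone and array weights kept it (limma adjusted p = 0.039 and 0.018). The causes were not tested. Actb itself was called lower in BAT, and the Gapdh and Actb scaling raised the median of all genes by 0.32, so all differences stand relative to that shift. It also widened the errors. Cnn1 differed by 1.34 ± 0.56 with that scaling, against 1.02 ± 0.17 in the main fit. The median SE over all genes was 0.56, against 0.14. The scaling used every Gapdh and Actb probe set, the 5' ones included. Depth does not apply to arrays, and signal over background was not available in the values used here.

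Against 2 member genes called higher, the count was 5 with each array as a replicate (which also called Pdgfrb lower, 1 gene against 0), 4 without the low 5' arrays, 1 with arrays centred on their medians, and 0 with arrays scaled to Gapdh and Actb, in the methods' t-test and for BAT replicate 4 against all sWAT replicates; without one replicate it was 1 to 2, and for lower calls 0. In the same order of those last 3 settings an unadjusted p under 0.05 was met by 2, 1 and 1 member genes higher and 0, 1 and 0 lower. Against 4 member probe sets called higher, the count was 9 with each array as a replicate, 2 with second arrays alone, 1 in the methods' t-test, and 0 with the Gapdh and Actb scaling and for BAT replicate 4. First arrays alone called 1 member probe set lower against 0, with 15.1% of all probe sets called lower. Of all genes 23.7% were called lower with each array as a replicate, 9.55% in the methods' t-test and 2.48% with the Gapdh and Actb scaling. Without one replicate the probe set counts stayed at 4 higher and 0 lower, though not always for the same probe sets. Over all genes the share called higher was 21.0% in the main fit and 38.7% with each array as a replicate. It was 28.7% without the low 5' arrays, 17.8% with median centring, 4.51% with the Gapdh and Actb scaling and 10.1% in the methods' t-test. Without 1 replicate it was 12.9% to 20.3%. Over all probe sets it was 31.8% with each array as a replicate and 13.5% with second arrays alone. It was 4.97% in that t-test and 3.59% with that scaling.

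For the 30 other smooth muscle and pericyte genes the shares of all genes given above apply, with 28.9% higher and 20.6% lower for array weights. Of the 30, 7 were called higher. This was 13 with each array as a replicate, 12 with array weights, 11 without the low 5' arrays and 1 with the Gapdh and Actb scaling. Leaving out 1 replicate gave 5 to 7. The 2 called lower became 4 with each array as a replicate or array weights, 1 with first arrays alone or probe sets ending in _at alone, and 0 with the Gapdh and Actb scaling, in the methods' t-test and for BAT replicate 4; leaving out one replicate gave 1 to 4.

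Signs turned mostly for genes whose difference was small. For BAT replicate 4 against all sWAT replicates the log2 differences were 0.57 for Anpep, 0.69 for Pdgfc, 0.28 for Tgfb2, -0.37 for Rgs16, -0.37 for Tagln, -0.077 for Abcc9, -0.25 for Acta2 probe set 1416454_s_at and -0.58 for Abcc9 probe set 1435752_s_at and -0.015 for Myh11. In replicate 4 alone they were 0.52 for Anpep, 0.90 for Pdgfc, 0.49 for Tgfb2, -0.54 for Rgs16, -0.47 for Tagln, -0.049 and -0.12 for Acta2 probe sets 1416454_s_at and 1456658_at, -0.029 for Myh11 and -0.0015 for Abcc9 probe set 1435752_s_at. With second arrays alone they were 0.090 for Anpep, 0.11 for Pdgfc, 0.12 for Tgfb2, -0.30 for Tagln, -0.054 for Mcam, -0.18 for Rgs5 probe set 1420942_s_at, 0.20 for Pdgfrb probe set 1436970_a_at and -0.070 for Notch3 probe set 1421964_at. With first arrays alone they were -0.23 for Dll1, 0.10 for Pdgfrb probe set 1417148_at and -0.23 for Abcc9 probe set 1435752_s_at. With the Gapdh and Actb scaling they were 0.31 for Anpep, 0.041 for Pdgfc, 0.32 for Tgfb2, 0.11 for Pdgfrb and 0.18 and 0.036 for its probe sets 1417148_at and 1436970_a_at. With array weights they were 0.0088 for Anpep, -0.12 for Jag1, -0.050 for Tagln and -0.23 for Mcam. Dll1 was at -0.013 without the low 5' arrays and at -0.015 with arrays centred on their medians. Over the fits without one replicate the range was -0.19 to 0.079 for Anpep, -0.058 to 0.26 for Dll1, -0.17 to 0.11 for Tgfb2, -0.14 to 0.37 for Rgs16, -0.068 to 0.36 for Jag1, -0.53 to 0.44 for Tagln, -0.14 to 0.40 for Mcam and -0.062 to 0.54 for Abcc9 probe set 1420408_a_at.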

Other observations

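Over the 8 replicate values, the genes outside the list whose pattern was most like the scaled mean of Acta2, Tagln and Cnn1 were Cxxc5 (Pearson r = 0.99), Myh11, the smooth muscle myosin heavy chain (0.98), and Tmem115 (0.98). For the scaled mean of the other 6 genes they were Rbp4, the retinol carrier (0.99), Cdc42ep1 (0.96) and Mmp11 (0.96). These are the highest of all genes and a description of these 8 values, which include the replicates with a low 5' array, and no p is attached. Myh11 itself differed by 0.39 ± 0.21 (limma adjusted p = 0.18).

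After the tissue means were subtracted, the 36 pairs among the 9 genes had a median r of 0.42 over the 8 replicates, and 30 were above 0. The pair Acta2 and Cnn1 stood at 0.92, as did Rgs5 and Cspg4, while Notch3 and Abcc9 stood at -0.77. With the low 5' arrays left out the median was 0.33 and the highest pair was Acta2 and Tagln at 0.95. Acta2 and Cnn1 then stood at 0.84, Rgs5 and Cspg4 at 0.75, and Notch3 and Abcc9 at -0.65. The points share arrays and normalisation.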
